A study of Mus musculus with 12 samples.

Results

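The genes described here are 10 heat shock chaperone genes, Hsph1, Hspa8, Hspa1a, Hspa1b, Hsp90aa1, Hsp90ab1, Dnajb1, Dnaja1, Hspd1 and Hspe1, taken by gene symbol. The list was chosen with earlier results of these data known, so its counts beside those of all genes are descriptions. All 10 were found among the 15663 genes of the joined tables. Messenger RNA was sequenced from mouse hearts (strain label C57/BL 6) at embryonic day 9.5, in 12 libraries that form 4 genotype groups of 3. Every group carried the Cre driver labelled NkxCre. The double mutant (NkxCre.Asb2fl/fl.Flnafl/fl) had both genes floxed, the Asb2 cKO (conditional knockout, NkxCre.Asb2fl/fl) had both Asb2 alleles floxed, and the Flna-labelled group (NkxCre.Asb2fl/+.Flnafl/fl) had floxed Flna with 1 floxed Asb2 allele. The control (NkxCre.Asb2fl/+) also carried 1 floxed Asb2 allele, so no group was free of Cre or of a floxed Asb2 allele, and the series' text counts 2 kinds of control samples, which places the Flna-labelled group among them. The Cre driver's name points to an Nkx gene, and the labels do not say which or in which cells it acts, nor whether a library came from a single heart or a pool, so the p-values reflect library-to-library spread, which may be technical.

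ASB2 is the substrate-binding subunit of a ubiquitin ligase that acts on filamins, and FLNA is the filamin that binds actin filaments into networks. Cytosolic heat shock chaperones keep proteins folded. HSC70, the constitutive HSP70 encoded by Hspa8, holds exposed hydrophobic stretches in cycles of ATP hydrolysis, J proteins such as DNAJA1 and DNAJB1 bring it clients and speed its ATPase, and HSP110, encoded by Hsph1, exchanges its nucleotide. HSP90 takes over partly folded clients such as kinases and, in striated muscle, myosin. Heat shock factor 1 (HSF1) drives many of these genes under stress through heat shock elements, arrays of the unit nGAAn in alternating orientation. Hspd1 and Hspe1 fall outside the label cytosolic: they encode HSP60 and HSP10, the folding chamber of the mitochondrial matrix and its lid, and are described apart.

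The stretches around the transcription starts are shown because 5 of these genes fell in each of 3 comparisons below and heat shock elements are their best known control sequences. RefSeq windows of 250 bases before to 50 after a start (GRCm38.p6) were found for 7 of the 10 genes, 12 windows in all. Hspa8, Hsp90aa1 and Hsp90ab1 were not matched. Capitals mark the motifs GAANNTTC and TTCNNGAA, each its own reverse complement, which are pairs of units facing each other or facing apart and which overlap where 3 or more units are linked. The Hspe1 window (chr1:55087898-55088197, plus strand) spans most of the second Hspd1 window on the other strand, so both genes show the same array. The Hsph1 window is chr5:149636287-149636586 on the minus strand, the Dnaja1 window chr4:40722218-40722517 on the plus strand and the Hspa1a window chr17:34972107-34972406 on the minus strand.
Hsph1: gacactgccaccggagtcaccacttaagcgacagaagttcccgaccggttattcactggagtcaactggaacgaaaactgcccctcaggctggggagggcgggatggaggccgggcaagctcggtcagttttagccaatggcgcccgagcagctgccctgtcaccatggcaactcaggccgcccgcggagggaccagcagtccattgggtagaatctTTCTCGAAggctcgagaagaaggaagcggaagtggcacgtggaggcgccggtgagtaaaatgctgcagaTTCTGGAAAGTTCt
Hspe1: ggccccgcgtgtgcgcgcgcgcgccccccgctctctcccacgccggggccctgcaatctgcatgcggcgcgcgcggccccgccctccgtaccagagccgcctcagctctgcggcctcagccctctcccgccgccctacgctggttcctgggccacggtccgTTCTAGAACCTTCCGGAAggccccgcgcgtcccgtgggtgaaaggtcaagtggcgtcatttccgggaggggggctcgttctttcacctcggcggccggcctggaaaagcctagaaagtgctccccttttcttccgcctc
Dnaja1: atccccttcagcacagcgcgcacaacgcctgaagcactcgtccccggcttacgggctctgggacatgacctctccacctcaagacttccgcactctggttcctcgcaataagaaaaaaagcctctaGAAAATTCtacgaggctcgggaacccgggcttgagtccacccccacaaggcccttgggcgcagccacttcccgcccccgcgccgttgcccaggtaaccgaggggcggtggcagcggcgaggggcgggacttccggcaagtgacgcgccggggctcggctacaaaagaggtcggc
Hspa1a: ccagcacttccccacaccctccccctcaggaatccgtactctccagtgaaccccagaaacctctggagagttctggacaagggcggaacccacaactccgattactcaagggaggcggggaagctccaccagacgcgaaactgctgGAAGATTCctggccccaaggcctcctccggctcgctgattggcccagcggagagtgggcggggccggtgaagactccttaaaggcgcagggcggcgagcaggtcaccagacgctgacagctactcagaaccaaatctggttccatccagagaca

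At least 1 of the motifs stood in a window of 6 of the 7 genes with a window, all but Dnajb1, against 15.1% of all 32851 windows and 17% of the 27025 genes in the table. The 3 genes Hsph1, Hspd1 and Hspe1 had 3 or more linked units, a pattern in 0.603% of all windows and 0.662% of all genes. Hspd1 and Hspe1 show the same array, and the windows of Hspa1a and Hspa1b are near copies. These counts of genes are therefore not counts of independent sequences. With the start base as 0, the linked array began at -89 from the Hspe1 start and at -144 from the second Hspd1 start, and that of Hsph1 began at 36, inside the transcribed part of its first window, with a further pair at -33. The first Dnaja1 window had a single pair at -124 and the other 2 windows of that gene had none. Hspa1a and Hspa1b each had a pair at -104, and their windows were the same at 296 of 300 bases. In the partner lists counted below, a motif stood in 3 of 13 HSP90 co-chaperones with a window and 5 of 17 HSP70 partners and other J proteins. It stood in 4 of 5 small heat shock proteins, 3 of 12 TRiC and prefoldin genes and 1 of 7 mitochondrial genes. Endoplasmic reticulum chaperones had it in 0 of 11, HSF and its regulators in 0 of 2 and immediate early genes in 2 of 14. Whether the motifs go with the falls was not tested. A match describes letters and is not a binding site, and the absence of a match in Dnajb1 says only that these letters are not in its windows.

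**Figure D1:**
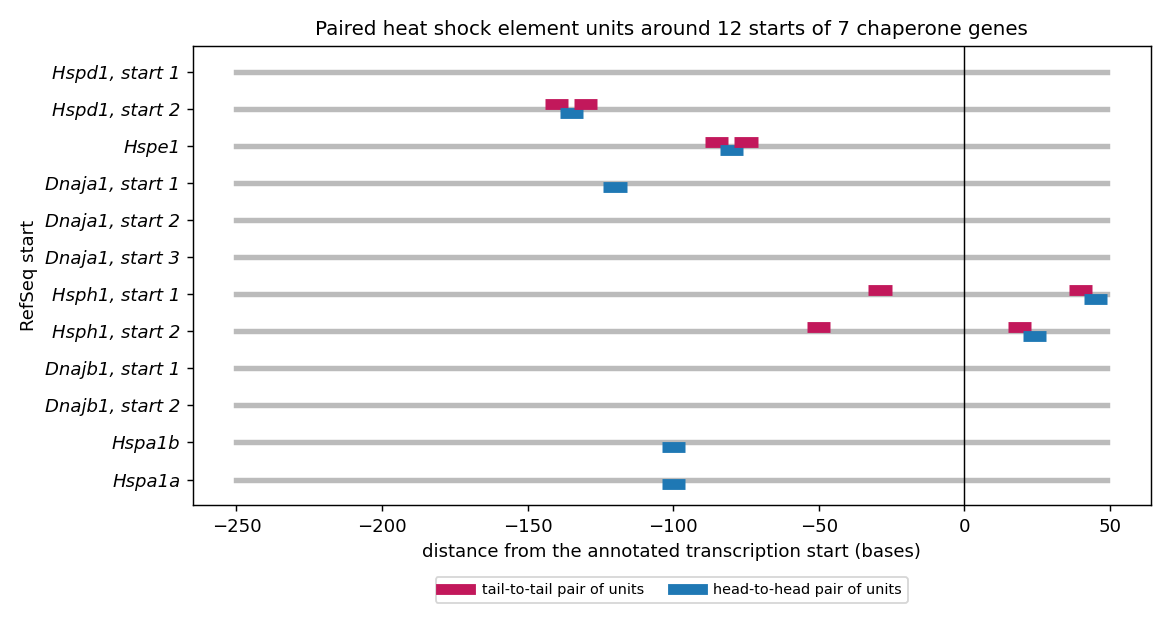
Positions of the motifs TTCNNGAA (tail-to-tail pair of units) and GAANNTTC (head-to-head pair) in 12 RefSeq windows of 7 chaperone genes. The x axis is the distance in bases from each annotated start and each row is a start; linked arrays of 3 or more units appear for Hspd1 (second start), Hspe1 and both starts of Hsph1.

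The libraries held 25954539 to 42473118 reads in listed genes, and 1 read was worth 0.0239 to 0.038 CPM (read counts relative to the authors' scaled library size). Levels below are CPM. Fold changes are on the scale of log2(CPM + 0.5), where low genes appear to change less than they do, with standard error (SE) and the Benjamini-Hochberg adjusted p of limma over all genes. Asb2 stood at 122, 121 and 153 CPM in the double mutant, 77.8, 163 and 115 CPM in Asb2 cKO hearts, 125, 113 and 197 CPM in the Flna-labelled libraries and 289, 183 and 218 CPM in the control. Asb2 fell against the control in the Asb2 cKO (-0.99, adjusted p = 0.0248) and the double mutant (-0.78, adjusted p = 0.00724). Between the double mutant and the Flna-labelled group, whose labels differ in Asb2, its libraries overlapped and it did not pass (-0.1, SE 0.21, adjusted p = 0.737). Flna was not lower where the label says it was floxed: it averaged 1057 ± 77.6 CPM in the double mutant, 875 ± 153 in the Asb2 cKO, 986 ± 26.4 in the Flna-labelled libraries and 589 ± 119 in the control (SD, n = 3 each). The 9 cardiomyocyte markers listed (Tnnt2, Myh6 and others) summed to 25906 to 40688 CPM in the double mutant, 22343 to 37721 in the Asb2 cKO, 16509 to 30753 in the Flna-labelled group and 26203 to 40556 in the control. The 9 markers of primitive red cells that were listed (Hbb-y, Klf1 and others) summed to 356 to 604 CPM in the double mutant and 516 to 1217 in the Asb2 cKO, against 3097 to 3983 in the Flna-labelled and 7524 to 8162 in the control libraries. In these whole hearts, fewer cells of a type and less RNA per cell cannot be told apart. Xist, a transcript of the inactive X chromosome, was at 9.34 CPM in double mutant library 3 and at 571 and 377 CPM in Asb2 cKO libraries 1 and 3. Control libraries 2 and 3 had 302 and 106 CPM. Every other library was under 1 CPM, among them all 3 Flna-labelled libraries, so Xist was spread unevenly over the groups. Flna lies on the X chromosome, and how the label Flnafl/fl goes with low Xist was not tested.

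When the Asb2 cKO was set against the control, Hsph1, Hspa8, Dnaja1, Hspd1 and Hspe1 fell, 5 of the 10 tested, and 0 rose, where 10.9% of 14034 genes fell and 10.7% rose. The double mutant gave a like set of values. Against the control, the same 5 genes fell and Hspa1a rose, where 16.7% of 14015 genes fell and 15.6% rose. Against the Flna-labelled libraries 6 fell, with Dnajb1 added to those 5, and Hspa1a rose, where 16.3% of 13954 genes fell and 15.1% rose. The first and the last of these comparisons use separate libraries, and the double mutant against the control shares libraries with both. The median log2 fold change of the 10 genes was -0.62 in the Asb2 cKO against the control, -0.38 in the double mutant against the control and -0.48 in the double mutant against the Flna-labelled group, where the medians of all genes tested were -0.01, 0.01 and -0.02. For the list's 10 genes, the groups did not overlap for 6 lower and 1 higher gene in each of these 3 comparisons. Over all genes tested they did not overlap for 21.5% lower and 20% higher in the first, 24.2% and 23.6% in the second and 25.1% and 22.4% in the third, so separate groups were common.

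**Figure D2:**
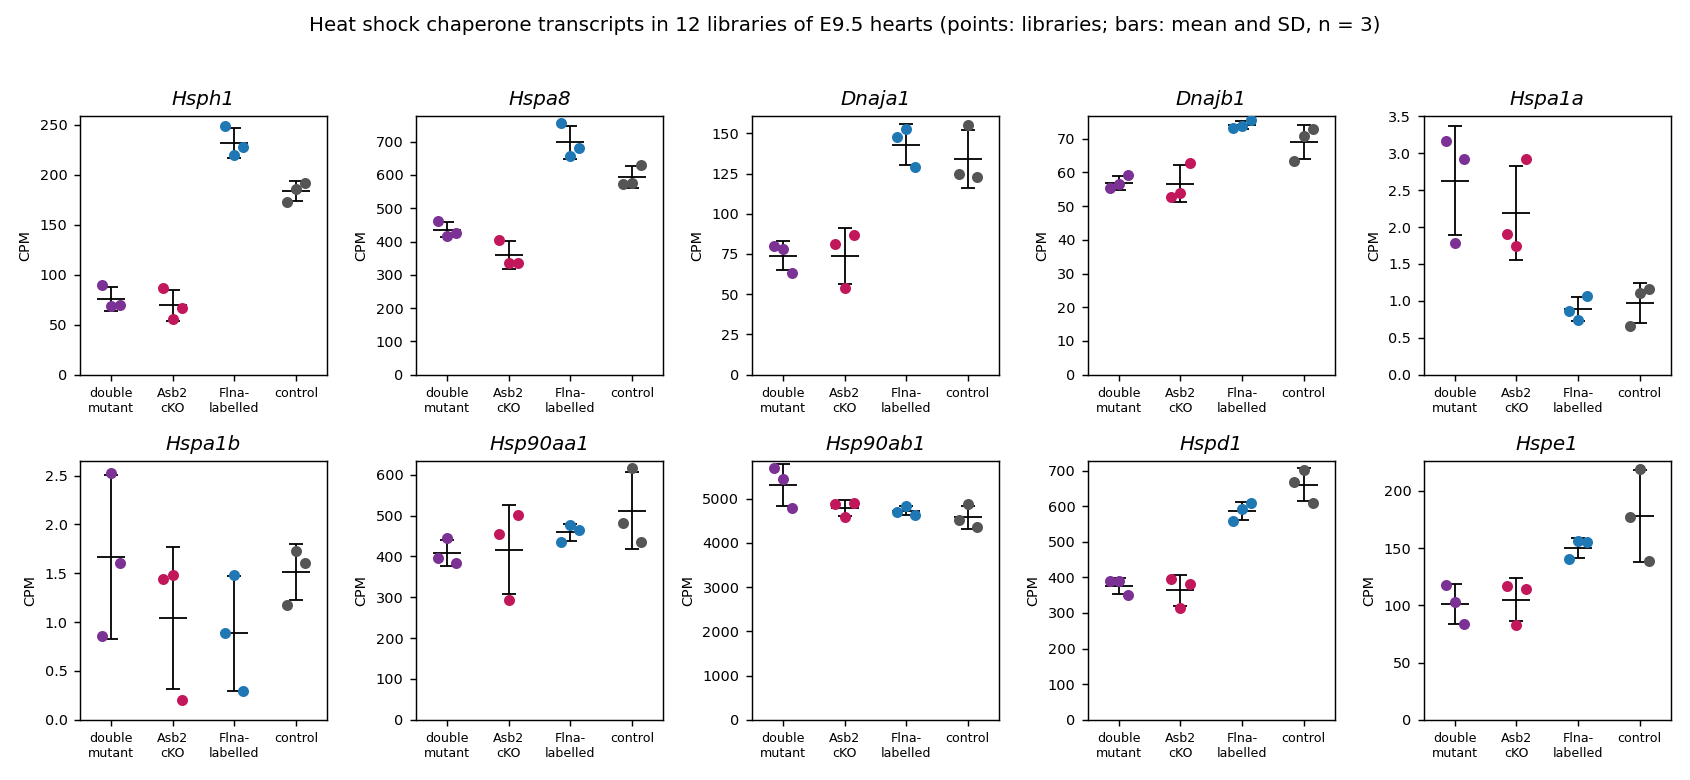
CPM (y axes, from 0) of the 10 chaperone genes in the double mutant, Asb2 cKO, Flna-labelled and control hearts. Points are libraries and bars are the mean and SD of 3. Hsph1 lies at 55.4 to 90.1 CPM in the double mutant and Asb2 cKO libraries. In the Flna-labelled and control libraries it lies at 173 to 249 CPM, while Hsp90ab1 overlaps between all groups.

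Hsph1 (ENSMUSG00000029657, chromosome 5, 149614287 to 149636376, minus strand, GRCm38), which encodes HSP110, had the largest fall of the 10 genes. It stood at 90.1, 68.5 and 69.3 CPM in the double mutant and 86.3, 55.4 and 67 CPM in the Asb2 cKO, against 249, 219.9 and 228 CPM in the Flna-labelled and 173, 186 and 192 CPM in the control libraries. Every library with both Asb2 alleles floxed was below every library without. The share of all genes separated in this way over the 12 libraries was not counted, here or for the genes and ratios below. The difference of the means was -62.1% in the Asb2 cKO against the control (log2 fold change -1.42, SE 0.16, adjusted p = 0.00042), -58.6% in the double mutant against the control (-1.28, SE 0.13, adjusted p = 0.000117) and -67.3% when the double mutant was set against the Flna-labelled group (-1.62, SE 0.12, adjusted p = 9.63e-05). No 50-base stretch of its longest coding transcript in GENCODE M21 occurred in another gene's transcripts.

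Hspa8 (ENSMUSG00000015656, chromosome 9, 40800984 to 40810087, plus strand), the gene of HSC70, was at 460.4, 418 and 425 CPM in the double mutant and 406, 335 and 336 CPM in the Asb2 cKO, against 755, 658 and 682 CPM in the Flna-labelled and 572, 577 and 631 CPM in the control libraries. The groups again did not overlap, and the double mutant libraries were all above those of the Asb2 cKO. Hspa8 fell in the Asb2 cKO against the control (-0.73, SE 0.14, adjusted p = 0.00571), in the double mutant against the control (-0.45, SE 0.11, adjusted p = 0.0104) as well as in the double mutant against the Flna-labelled group (-0.68, SE 0.10, adjusted p = 0.00158). Its call in the double mutant against the control was lost without double mutant library 2 (-0.42, adjusted p = 0.0572). Of the 50-base stretches in its transcript, 73.2% also occur in other genes' transcripts, mostly in the pseudogene Gm15459, so its counts depend on how the authors' counting treated shared reads.

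The balance of these HSP70 system genes differed between libraries. The ratio of Hspa8 to Hsph1 CPM was 5.11, 6.1 and 6.13 in the double mutant and 4.71, 6.04 and 5.01 in the Asb2 cKO, against 3.03, 2.99 and 2.99 in the Flna-labelled and 3.31, 3.11 and 3.28 in the control libraries. The ratio was higher in all 6 libraries with both Asb2 alleles floxed than in the other 6. The ratios are descriptions, since each gene was tested on the same libraries.

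Dnaja1 (ENSMUSG00000028410, chromosome 4, 40722150 to 40737149, plus strand), a J protein of the DNAJA class, stood at 79.9, 78 and 63.4 CPM in the double mutant and 81.3, 53.8 and 86.5 CPM in the Asb2 cKO, against 148, 153 and 129 CPM in the Flna-labelled and 125, 155 and 123 CPM in the control libraries. The 2 sets of libraries did not overlap. It fell in the Asb2 cKO against the control (-0.88, SE 0.18, adjusted p = 0.00906), in the double mutant against the control (-0.86, SE 0.13, adjusted p = 0.00139) as well as in the double mutant against the Flna-labelled group (-0.96, SE 0.12, adjusted p = 0.000776). Dnajb1 (ENSMUSG00000005483, chromosome 8, 83608193 to 83612653, plus strand), another J protein partner of HSP70, moved less. It was at 55.3, 56.5 and 59.3 CPM in the double mutant and 52.8, 54 and 62.9 CPM in the Asb2 cKO, against 73.3, 73.9 and 75.5 CPM in the Flna-labelled and 63.3, 70.8 and 73 CPM in the control libraries. The 6 libraries with both Asb2 alleles floxed were again below the other 6, with the highest Asb2 cKO library just below the lowest control library. Dnajb1 fell in the double mutant against the Flna-labelled group (-0.38, SE 0.08, adjusted p = 0.00975), and its values against the control did not pass in the double mutant (-0.27, SE 0.11, adjusted p = 0.074) or the Asb2 cKO (-0.29, SE 0.13, adjusted p = 0.142).

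**Figure D3:**
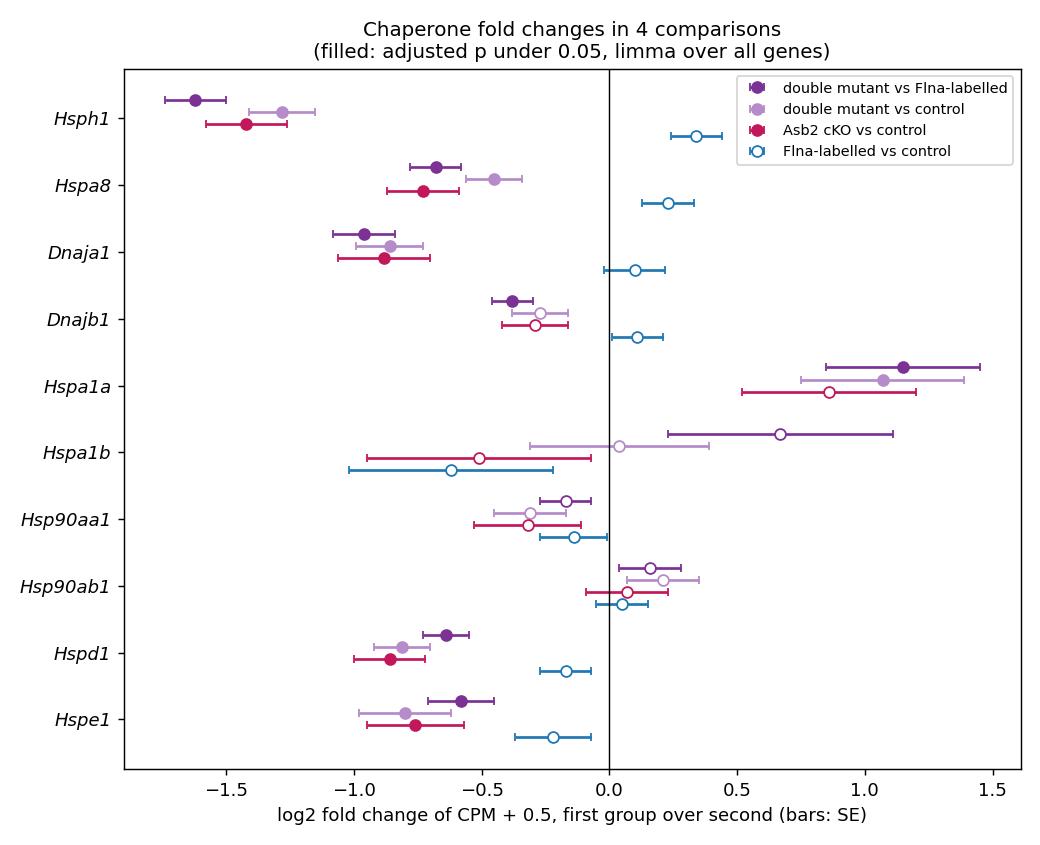
Log2 fold change of CPM + 0.5 (x axis) with its SE for each chaperone gene in 4 comparisons, the first-named group over the second. Filled points have an adjusted p under 0.05 by limma over all genes; Hsph1 lies at -1.62 to -1.28 in the 3 comparisons of libraries with both Asb2 alleles floxed, and no point of the Flna-labelled group against the control is filled.

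The HSP90 genes did not pass in any comparison. Hsp90ab1 (ENSMUSG00000023944, chromosome 17, 45567775 to 45573271, minus strand), the constitutive HSP90, stood at 5691, 5433 and 4779 CPM in the double mutant, 4884, 4583 and 4899 CPM in Asb2 cKO hearts, 4702, 4833 and 4637 CPM in the Flna-labelled libraries and 4506, 4873 and 4362 CPM in the control. The libraries of the 4 groups overlapped, with the 2 highest values in the double mutant. Its log2 fold change was 0.07 in the Asb2 cKO against the control (95% interval -0.28 to 0.41), 0.21 in the double mutant against the control (-0.10 to 0.52) and 0.16 in the double mutant against the Flna-labelled group (-0.12 to 0.44). Hsp90aa1 (ENSMUSG00000021270, chromosome 12, 110690605 to 110702728, minus strand), the stress-inducible HSP90, was at 396, 446 and 384 CPM in the double mutant, 455, 294 and 502 CPM in Asb2 cKO hearts, 435, 477 and 465 CPM in the Flna-labelled libraries and 483, 617 and 435 CPM in the control. The Asb2 cKO libraries spread widest, and the groups overlapped. Its log2 fold changes were -0.32 (95% interval -0.78 to 0.14), -0.31 (-0.62 to 0.00) and -0.17 (-0.38 to 0.05) in the same order. A fall of the size that Hspa8 had in the same comparison lies inside the first and second intervals and outside the third. Of the 50-base stretches of Hsp90aa1, 58.5% occur in other genes' transcripts, against 4.49% for Hsp90ab1.

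The constitutive HSP90 and HSC70 genes were also set against each other. The ratio of Hsp90ab1 to Hspa8 CPM was 12.4, 13 and 11.2 in the double mutant and 12, 13.7 and 14.6 in the Asb2 cKO, against 6.23, 7.35 and 6.79 in the Flna-labelled and 7.88, 8.44 and 6.91 in the control libraries. The first 2 groups did not overlap with the other 2. Hsp90ab1 made up most of the list's CPM. The summed CPM of the 10 genes lay at 6219 to 7284 in the double mutant, 5775 to 6482 in the Asb2 cKO, 6981 to 7163 in the Flna-labelled and 6568 to 7402 in the control libraries, so the double mutant overlapped with every other group and the Asb2 cKO lay below the Flna-labelled and control libraries.

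Hspd1 (ENSMUSG00000025980, chromosome 1, 55077835 to 55088243, minus strand) and Hspe1 (ENSMUSG00000073676, chromosome 1, 55088132 to 55091307, plus strand), the mitochondrial pair, lie head to head, and their annotated spans share 112 bases. Whether the authors counted by strand is not given in the sources used here, so reads in that stretch cannot be told apart. Hspd1 stood at 389, 389 and 349.9 CPM in the double mutant and 396, 314 and 381 CPM in the Asb2 cKO, against 558, 592 and 608 CPM in the Flna-labelled and 668, 702 and 610.1 CPM in the control libraries. Every library with both Asb2 alleles floxed was below the rest. It fell in the Asb2 cKO against the control (-0.86, SE 0.14, adjusted p = 0.00316), in the double mutant against the control (-0.81, SE 0.11, adjusted p = 0.000698) as well as in the double mutant against the Flna-labelled group (-0.64, SE 0.09, adjusted p = 0.00166). Hspe1 was at 118, 103 and 83.5 CPM in the double mutant and 117, 82.8 and 114 CPM in the Asb2 cKO, against 140.3, 156 and 155 CPM in the Flna-labelled and 177, 219 and 139 CPM in the control libraries. The 6 libraries with both Asb2 alleles floxed were below the other 6, with control library 2 the highest. Hspe1 fell in the Asb2 cKO against the control (-0.76, SE 0.19, adjusted p = 0.0182), in the double mutant against the control (-0.80, SE 0.18, adjusted p = 0.0091) as well as in the double mutant against the Flna-labelled group (-0.58, SE 0.13, adjusted p = 0.01). Leaving out control library 2 put Hspe1 above the threshold p in the Asb2 cKO (-0.60, adjusted p = 0.0715), so that call rests on this library. The ratio of Hspd1 to Hspe1 CPM lay between 3.21 and 4.4 in all 12 libraries and overlapped between the groups. Other genes' transcripts hold 44.8% of the 50-base stretches of Hspd1 and 36.1% of those of Hspe1, mostly Hspd1-ps3 and AC117239.2.

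The stress-inducible HSP70 genes were near the floor of detection and did not follow the others. Hspa1a (ENSMUSG00000091971, chromosome 17, 34969190 to 34972156, minus strand) was at 3.17, 1.79 and 2.92 CPM in the double mutant and 1.9, 1.75 and 2.92 CPM in the Asb2 cKO, against 0.86, 0.738 and 1.07 CPM in the Flna-labelled and 0.658, 1.1 and 1.16 CPM in the control libraries. All 6 libraries with both Asb2 alleles floxed were above all 6 without, a split whose share over all genes was not counted. Hspa1a rose in the double mutant against the control (1.07, SE 0.32, adjusted p = 0.0275) and against the Flna-labelled group (1.15, SE 0.30, adjusted p = 0.0194). Its value in the Asb2 cKO against the control did not pass (0.86, SE 0.34, adjusted p = 0.0903). Leaving out control library 1 (adjusted p = 0.0685) or 2 (0.0527) or double mutant library 1 (0.0962) or 3 (0.0832) ended the call against the control. The call against the Flna-labelled group ended without Flna-labelled library 1 (adjusted p = 0.0555) or 2 (0.0616) or double mutant library 1 (0.0655) or 3 (0.0634). Hspa1b (ENSMUSG00000090877, chromosome 17, 34956436 to 34959238, minus strand) was at 0.859, 2.53 and 1.61 CPM in the double mutant, 1.44, 1.48 and 0.206 CPM in Asb2 cKO hearts, 0.886, 1.48 and 0.294 CPM in the Flna-labelled libraries and 1.18, 1.73 and 1.61 CPM in the control. Its groups overlapped and no value passed, with adjusted p = 0.271 to 0.933 over the same 3 comparisons. The transcripts of Hspa1a and Hspa1b share 58.8% and 62.3% of their 50-base stretches, so reads of either gene may have been dropped or assigned to its copy, and the level of each is uncertain.

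Levels were ranked between genes per kilobase of the deposited gene length, as mean CPM per kb. The CPM ratios between genes given above are not corrected for length and serve to compare libraries. Hsp90ab1 was the highest in every group, at 1940 in the double mutant, 1750 in the Asb2 cKO, 1730 in the Flna-labelled group and 1680 in the control. In the control it was followed by Hspd1 at 251, Hspa8 at 194, Hsp90aa1 at 115, Hspe1 at 114, Dnajb1 at 30.5, Hsph1 at 26.1, Dnaja1 at 15.7, Hspa1b at 0.301 and Hspa1a at 0.191. Of these neighbours Hsp90aa1 and Hspe1 overlapped over the control libraries (98.1 to 139 and 88.4 to 140), and the others did not. The order was the same in the double mutant down to Dnaja1, where Hspd1 at 143 and Hspa8 at 142 CPM per kb overlapped and Hsp90aa1 at 92.1 stood clear of Hspe1 at 64.7. Hsph1 and Dnajb1 were level in the Flna-labelled libraries, at 33.1 and 32.9 CPM per kb, and far apart in the double mutant, at 10.8 and 25.2. The lengths deposited for Hspa1a and Hspa1b, 5104 and 5006 bases, exceed their spans in GENCODE M21 of 2967 and 2803 bases, so their values per kb may be low.

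Among the libraries labelled Flna, which carry the same Asb2 genotype as the control, none of the 9 chaperone genes tested passed against the control by limma, edgeR or DESeq2, where 10 of 13891 genes passed by limma, or 0.072%. Hspa1a, with a mean below the filter of 1 CPM in this comparison, was not tested. At an unadjusted p under 0.05 there were 2 of the 9, near the 13.1% of all genes at that threshold. They were Hsph1 (0.34, SE 0.10, adjusted p = 0.292) and Hspa8 (0.23, SE 0.10, adjusted p = 0.367). Without overlap between the groups, 3 of the 9 were higher in the Flna-labelled libraries (Hsph1, Hspa8 and Dnajb1) and 1 was lower (Hspd1). The share of all genes without overlap was not counted for this comparison. The intervals were 0.12 to 0.55 for Hsph1 and 0.01 to 0.46 for Hspa8. Hspd1 had a log2 fold change of -0.17 (95% interval -0.39 to 0.05) and Hspe1 of -0.22 (-0.57 to 0.13).

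The double mutant was set against the Asb2 cKO to ask whether the Flna genotype alters the chaperone levels found with both Asb2 alleles floxed, in libraries whose Flna transcripts went against the label. None of the 10 genes passed by limma, edgeR or DESeq2, none had an unadjusted p under 0.05, and 3 of 14037 genes passed by limma, or 0.0214%. The log2 fold changes ran from -0.04 for Hspe1 (95% interval -0.42 to 0.34) to 0.56 for Hspa1b (-0.50 to 1.61). Hsph1 differed by 0.14 (-0.26 to 0.53), Dnaja1 by 0.02 (-0.39 to 0.43) and Hspd1 by 0.05 (-0.25 to 0.35). Hspa8, at 0.28 (-0.01 to 0.57), was higher in each double mutant library than in any Asb2 cKO library, the only gene of the 10 without overlap. The share of all genes without overlap was not counted here. The interaction, which tests whether the effect of the second floxed Asb2 allele differs with the Flna genotype, called 0 of the 10 genes and 0 of 13981 genes (0%) by limma, with 0 of the 10 and 1372 of all genes at an unadjusted p under 0.05. For all genes edgeR called 0 and DESeq2 71, of which none was among the 10. Its values were -0.20 for Hsph1 (95% interval -0.66 to 0.25), 0.05 for Hspa8 (-0.28 to 0.38), -0.08 for Dnaja1 (-0.59 to 0.43) and 0.22 for Hspd1 (-0.12 to 0.56).

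The genes that work with these chaperones were counted in lists by function, chosen with earlier results of these data known. Their counts beside the shares of all genes are therefore descriptions. HSP90 co-chaperones were the cytosolic list with the most falls: 5 of 15 fell and 0 rose in the Asb2 cKO against the control, 7 of 15 fell in the double mutant against the control and 11 of 15 against the Flna-labelled group, with median log2 fold changes of -0.37, -0.33 and -0.36. All genes fell at 10.9%, 16.7% and 16.3%. Ahsa1, which stimulates the ATPase of HSP90, averaged 106 ± 12.3 CPM in the double mutant and 113 ± 24.2 in the Asb2 cKO, against 223 ± 25.4 in the control (SD, n = 3 each). It fell in the Asb2 cKO (-1.0, SE 0.17, adjusted p = 0.00405) as well as in the double mutant (-1.07, SE 0.12, adjusted p = 0.000332). Ahsa2, its paralogue, fell by 0.81 and 0.69 on the log2 scale in the Asb2 cKO and the double mutant against the control. Stip1, the adaptor that joins HSP70 to HSP90, fell in the double mutant by 0.57 against the control and by 0.62 against the Flna-labelled group. It also fell in the Asb2 cKO against the control (-0.51, adjusted p = 0.0385). Chordc1, an HSP90 cofactor, fell in the Asb2 cKO (-0.63, adjusted p = 0.0098). In the double mutant it fell against the control (-0.33, adjusted p = 0.0457) and the Flna-labelled group (-0.5, adjusted p = 0.00823). The count of the Asb2 cKO went to 3 without control library 1 or 3 or Asb2 cKO library 2, and that of the double mutant against the control to 4 without control library 1 or 2 or double mutant library 3, and to 3 without double mutant library 2. Against the Flna-labelled group it went to 5 without Flna-labelled library 1 or 2 or double mutant library 2, and to 6 without double mutant library 3.

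HSP70 partners and other J proteins had counts near those of all genes, of which 10.9%, 16.7% and 16.3% fell in the 3 comparisons. In the Asb2 cKO against the control 3 of 19 fell and 0 rose (median -0.15), in the double mutant against the control 5 fell and 2 rose (-0.12), and against the Flna-labelled group 4 fell and 2 rose (median -0.09). Hspbp1, a nucleotide exchange factor of HSP70, fell in each (-0.74 in the Asb2 cKO, -0.78 in the double mutant against the control and -0.72 against the Flna-labelled group). Hspa4, another HSP110 family gene, fell in the double mutant by 0.49 against the control and 0.53 against the Flna-labelled group. In the same hearts the J protein gene Dnajb4 rose against the control (0.39, adjusted p = 0.0202, lost without control library 2 at 0.0594 or double mutant library 3 at 0.0746) and Dnajb5 rose against the Flna-labelled group (0.84, adjusted p = 0.00967). Without control library 1 or 2 the Asb2 cKO count was 0. The double mutant count of 7 against the control went to 2 without control library 2 and to 3 without double mutant library 2 or 3, and that of 6 against the Flna-labelled group to 3 without Flna-labelled library 1.

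The TRiC and prefoldin list, the chaperonin that folds actin and tubulin and its feeder, had 2 of 13 falls in the Asb2 cKO against the control, 4 in the double mutant against the control and 4 against the Flna-labelled group, with no rise and medians of -0.34, -0.27 and -0.02. The first count is near the 10.9% of all genes that fell there, and the others stand beside 16.7% and 16.3%. Cct3, a TRiC subunit, was at 450.5 ± 29.9 CPM in the double mutant and 466 ± 92.1 in the Asb2 cKO, against 683 ± 14.7 in the Flna-labelled and 708 ± 56.7 in the control libraries (SD, n = 3 each), and fell in all 3 comparisons (-0.62 in the Asb2 cKO, -0.65 in the double mutant against the control and -0.60 against the Flna-labelled group). The Asb2 cKO count fell to 0 without control library 1 or 2 or Asb2 cKO library 2 and to 1 without Asb2 cKO library 3, and the count of the double mutant against the control to 2 without double mutant library 2. Of 7 small heat shock proteins, Hspb3 alone fell in each comparison (-1.46 in the Asb2 cKO, -1.80 and -1.02 in the double mutant against the control and the Flna-labelled group). Hspb7 and Hspb8, both known from heart muscle, rose with 1 further gene, Hspb1, in the double mutant against the Flna-labelled group (0.81, 0.60 and 0.67). Hspb1, a small heat shock protein of many tissues, is named after its values were seen. The cardiomyocyte marker sums given above moved the same way in that comparison, and their part in this was not tested. That count of 4 went to 1 without Flna-labelled library 1 or 2 or double mutant library 2 or 3, and the count of 1 in the double mutant against the control to 2 without double mutant library 1.

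In the endoplasmic reticulum 8 of 12 fell in the Asb2 cKO against the control, 8 in the double mutant against the control and 9 against the Flna-labelled group, with no rise and medians of -0.53, -0.53 and -0.56, where 10.9%, 16.7% and 16.3% of all genes fell. Hspa5, encoding BiP, averaged 991 ± 133 CPM in the Asb2 cKO and 1696 ± 108 in the control (SD, n = 3 each; -0.78, SE 0.15, adjusted p = 0.0069), and its J protein Dnajb11 fell by 1.01 in the Asb2 cKO and by 0.92 in the double mutant against the control. Without control library 1, 2 or 3 or Asb2 cKO library 2 the count of 8 in the Asb2 cKO was 5, 3, 4 and 5. Of 10 other mitochondrial chaperones and proteases 2 rose, 1 fell and 7 did not pass in each of the 3 comparisons, with medians of -0.12, 0.03 and 0.05. The protease gene Lonp1 rose (0.74 in the Asb2 cKO, 0.81 and 0.82 in the double mutant against the control and the Flna-labelled group), as did Hscb, a J protein of iron-sulphur cluster assembly (1.06, 1.01 and 1.08). Grpel1, the nucleotide exchange factor of mitochondrial HSP70, fell (-0.57, -0.54 and -0.29, adjusted p = 0.0323, 0.0102 and 0.0303). Grpel1 no longer passed in the Asb2 cKO when control library 1 or 2 or Asb2 cKO library 1 or 2 was left out (adjusted p = 0.0743 to 0.117), nor in the double mutant against the Flna-labelled group when any 1 of their 6 libraries was (0.056 to 0.0801). None of the 93 partner genes tested passed in the Flna-labelled group against the control, in the double mutant against the Asb2 cKO or in the interaction by limma, with 16, 4 and 11 at an unadjusted p under 0.05, where 13.1%, 3.36% and 9.81% of all genes were. DESeq2 called 2 small heat shock proteins and 1 endoplasmic reticulum chaperone in the first of these. Without Flna-labelled library 3 limma called 3 small heat shock proteins there, and without Asb2 cKO library 2 it called 1 immediate early gene in each of the other two.

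**Figure D4:**
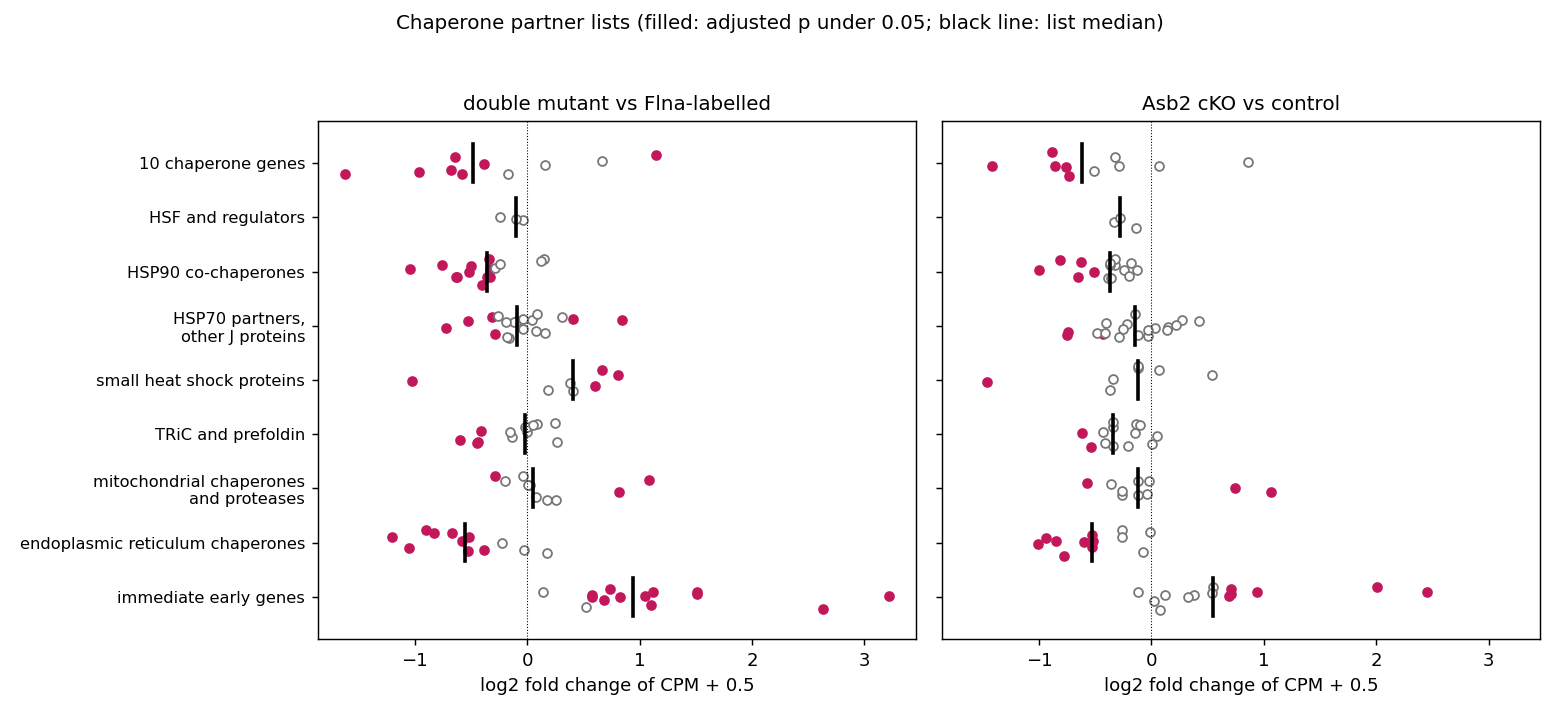
Log2 fold change of CPM + 0.5 (x axis) of the 10 chaperone genes and of 8 lists of related genes, in the double mutant against the Flna-labelled group (left) and the Asb2 cKO against the control (right). Each point is a gene, filled points have an adjusted p under 0.05, and black lines are list medians; immediate early genes lie to the right and endoplasmic reticulum chaperones to the left in both panels.

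Hsf1, the factor that drives heat shock genes, was at 37.1, 36.3 and 33.6 CPM in the double mutant and 41.6, 35.6 and 35.7 CPM in the Asb2 cKO, against 45.1, 44.7 and 37 CPM in the Flna-labelled and 44.6, 48 and 45 CPM in the control libraries. It fell in the double mutant against the control (-0.36, SE 0.11, adjusted p = 0.0308). That call was lost without control library 1 or 2 or double mutant library 2 or 3, and the count of called genes in the HSF list went to 2 without control library 3. Its values in the Asb2 cKO against the control (-0.28, adjusted p = 0.148) and in the double mutant against the Flna-labelled group (-0.24, adjusted p = 0.137) did not pass, with 1 gene of the list called in the second of these without Flna-labelled library 3. Hsf2 averaged 47.2 ± 1.17 CPM in the double mutant, 46.4 ± 3.87 in the Asb2 cKO, 50.8 ± 4.62 in the Flna-labelled group and 51.1 ± 5.27 in the control (SD, n = 3 each) and did not pass in any of the 6 comparisons.

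Immediate early genes, which are known to respond quickly to many stimuli, were called in 1 direction. Of 14 immediate early genes 6 rose in the Asb2 cKO against the control, 11 in the double mutant against the control and 12 against the Flna-labelled group, and 0 fell, against 10.7%, 15.6% and 15.1% of all genes that rose. The second count was 7 with Xist as a covariate and 7 among libraries with Xist under 1 CPM. Atf3 averaged 57.5 ± 7.97 CPM in the double mutant and 50.2 ± 9.52 in the Asb2 cKO, against 12.2 ± 3.29 in the control (SD, n = 3 each; 2.21 and 2.01, adjusted p = 5.55e-05 and 0.000292). The list summed to 922 to 1028 CPM in the double mutant and 714 to 979.5 in the Asb2 cKO, against 560.3 to 584 in the Flna-labelled and 593 to 597 in the control libraries. All 9 primitive red cell markers tested fell in the Asb2 cKO and in the double mutant against the control, with median log2 fold changes of -2.96 and -3.97. In the Flna-labelled group against the control 4 of the 9 fell as well (median -1.07), where 10 of 13891 genes passed. Markers of pharyngeal endoderm and surface epithelium (Epcam, Krt8 and others) summed to 339.9 to 559 CPM in the double mutant and 424 to 611 in the Asb2 cKO, against 241 to 458 in the Flna-labelled and 231 to 313 in the control libraries, with 3 of 6 higher in the Asb2 cKO and 2 of 6 in the double mutant against the control. The 7 endothelial and endocardial markers summed to 963 to 1281 CPM in the double mutant, 749 to 1119.9 in the Asb2 cKO, 576 to 751 in the Flna-labelled and 642 to 803 in the control libraries. Of these, 4 rose in the double mutant against the control, 4 rose against the Flna-labelled group, and 1 rose and 2 fell in the Asb2 cKO. Epicardial markers (43.8 to 309 CPM in the control and within that range elsewhere) had no call against the control, and 2 of 4 fell in the double mutant against the Flna-labelled group. Liver bud and yolk sac markers summed to 1.78 to 2.34 CPM in the double mutant, with Alb at 0, and 2.89 to 95 in the Asb2 cKO, against 114 to 434 in the Flna-labelled and 5.98 to 263 in the control libraries. Of these, 1 of 4 tested rose in the Asb2 cKO against the control, 0 of 3 passed in the double mutant against the control and 5 of 5 fell against the Flna-labelled group. Neural crest markers summed to at most 30.9 CPM in any library, with Foxd3 at 0 in the double mutant and the Asb2 cKO. The part of any of these in the chaperone values was not tested.

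Over the 12 libraries the 10 genes did not form a single pattern. The Pearson correlation of each gene with the mean z score of the other 9 was highest for Dnaja1 (0.93), Hspd1 (0.88), Hspe1 (0.87) and Hsph1 (0.82), and negative for Hspa1a (-0.75), Hsp90ab1 (-0.26) and Hspa1b (-0.17). With group means removed, the correlation was 0.94 for Dnaja1, 0.82 for Hspd1, 0.79 for Hspe1, 0.77 for Hsp90aa1, 0.68 for Hsp90ab1 and 0.55 for Hsph1. It was 0.17 for Hspa8, 0.07 for Hspa1a, 0.04 for Dnajb1 and -0.37 for Hspa1b. Asb2 cKO library 2 had the lowest mean z score of the 10 genes, -1.11, and control library 2 the highest, 0.85. The genes outside the list most like its mean z score, among 10648 ranked over the 12 libraries, were Polr2m (0.97), Psmc3ip (0.97), Glrx2 (0.96), Sfpq (0.96) and Arglu1 (0.96). Sfpq, a splicing factor gene, averaged 502 CPM in the double mutant, 405 in the Asb2 cKO, 862 in the Flna-labelled group and 756 in the control. These correlations share libraries and group differences and are descriptions.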

How the data were processed

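The members and gene lists were chosen with earlier results of these data known. Reads were aligned with STAR to mm10, counted with HTSeq and compared with edgeR, per the submitters' processing notes; versions, annotation and strand are not given in the sources used here. The authors deposited 4 tables, each of 2 genotype groups. The expression values carry the unit signal: the authors divided read counts by a scaled library size and named the result CPM per the file headers (plain CPM had been assumed). The columns sum to 942334 to 1051801, and 100% of values are whole reads within 0.01 read. The log2 fold changes, p-value and FDR columns that the authors deposited come from their own test and gave no value printed here. Gene lengths from the tables served only for levels per kb. Values shared by tables differed by at most 4.4e-06 CPM, so the tables were joined on gene ID; 14810 genes are listed for all libraries, and 13 columns without header were not used. Replicates differed by more than sampling noise in every pair (mean chi-square per gene 20.3 to 117).

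limma 3.58.1 with its trend and robust options, run in R 4.3.3, tested log2(CPM + 0.5). A gene entered a fit if its libraries there averaged 1 CPM or more. Adjustment was over all genes (Benjamini-Hochberg), with a threshold of 0.05. Each pair of groups had its own fit, and the interaction used 12 libraries. The steps were tested on simulated data. As alternatives, the pseudocount was set to 0.1 or 2, the filter was dropped or raised to 5 CPM, libraries were rescaled by the median of ratios or without hemoglobin genes, and limma's trend and robust options were switched off. Count tests on the reads recovered from the values used edgeR 4.0.16 (quasi-likelihood) and DESeq2 1.42.0. A replicate block, a joint fit of the 4 groups with and without Xist as a covariate, and leaving out each library completed the set. A joint fit of the 7 libraries with Xist under 1 CPM was chosen after seeing the data. The text names all 10 members, Hsf1, Hsf2, Asb2 and Flna, genes from among up to 3 with the smallest p past the threshold in each partner list, and the 5 genes most like the members' mean z score. Shared 50-base stretches came from GENCODE M21 transcripts, and windows from RefSeq (GRCm38.p6). Tables were read and drawn with python 3.11.15, using pandas 2.3.3, numpy 2.4.6 and matplotlib 3.10.9, and in R with version 1.17.8 of data.table.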

Additional observations from a re-analysis of the deposited data

How the results depend on the processing

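The number of the 10 genes called ranged over 4 to 7 for Asb2 cKO and control libraries (main value 5), 4 to 6 in the double mutant against the control (6), 6 to 7 in the double mutant against the Flna-labelled group (7) and 0 in the other 3 comparisons, within 1.5 times of the main count under all 119 alternatives. Of 18 called values of single genes 14 kept their call under every alternative run and none reversed; 16 of 340 alternative values lost it. Besides those lost without 1 library, given with the genes, Hspe1 in the Asb2 cKO was lost without trend and robust (adjusted p = 0.0569) and with the replicate block (0.0507), Hspa1a in the double mutant against the control with the block (0.0559), and among libraries with Xist under 1 CPM Hspa8 (-0.38, adjusted p = 0.0883) and Hspa1a (1.32, 0.0821) in the double mutant against the control and Hspa1a against the Flna-labelled group (1.07, 0.0679). In that fit, which holds 1 control and 1 Asb2 cKO library assumed to vary like the rest, 6, 4 and 6 of the genes were called in the 3 comparisons and Hsp90aa1 passed in the Asb2 cKO (-0.72, adjusted p = 0.0141). The joint fit of 4 groups called 7 in the Asb2 cKO, Dnajb1 (-0.29, adjusted p = 0.0432) and Hspa1a (0.86, 0.0403) added. Values that changed sign were all uncalled: Hspa1b in the Asb2 cKO among libraries with Xist under 1 CPM (0.23), Hsp90aa1 in the Flna-labelled group with the Xist covariate (0.14), and Hspa1b in the double mutant against the control with the Xist covariate (-0.04), without control library 1 (-0.08) and without double mutant library 2 (-0.24), within -0.24 to 0.34 over the libraries left out in turn. The causes were not tested. Counts over all genes ranged from 1557 to 4339 of the Asb2 cKO against the control, 2699 to 5070 and 2712 to 5474 of the double mutant against the control and the Flna-labelled group, 0 to 244 of the Flna-labelled group, 0 to 26 of the double mutant against the Asb2 cKO and 0 to 71 of the interaction. Counts of the partner lists moved further: over all alternatives the falls of HSP90 co-chaperones, TRiC and prefoldin, and endoplasmic reticulum chaperones ranged over 3 to 10, 0 to 8 and 3 to 9 in the Asb2 cKO, 3 to 9, 2 to 6 and 7 to 8 in the double mutant against the control, and 5 to 11, 4 to 4 and 8 to 10 against the Flna-labelled group. The replicate block called 4, 5 and 7 of the genes in the first 3 comparisons and 0 in the others. Deviations of same-numbered libraries from their group means had correlations of -0.46 to 0.43, and all 3 exceeded 0.1 in 0 of 6 pairs of groups. Libraries of different number were not correlated, so these values cannot show whether same-numbered libraries are paired. Hspa1a and Hspa1b, at 0.206 to 3.17 CPM, are limited by depth and by the reads they share.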
